A study of Mus musculus with 8 samples.

Results

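The strongest distal summits of this series are 7 regions of open chromatin that stood at least 20-fold above their local background in each of 8 ATAC-seq libraries and lay more than 1 kb from the ends of protein-coding genes. Overlapping peaks of the 8 deposited lists on chromosomes 1 to 19 were merged into 88724 regions. Every library called 48684 of them, 35315 of which were distal, and 7 of the 35315 reached a fold enrichment of 20 in every library. They were chosen by their fold enrichment, the authors' own value: the fragment pileup at the summit of a peak divided by the background expected there, each with 1 fragment added. Fold values of the 7 regions are therefore given as a description and are not tested.

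In ATAC-seq a transposase cuts accessible DNA and inserts sequencing adapters, so fragments pile up over open chromatin. The cells were long-term haematopoietic stem cells (HSC), the rare bone marrow cells that renew themselves and give rise to all blood lineages, sorted from mice 2 to 3 months old. All mice carried Vav1-cre, a recombinase driven by a promoter active in blood cells, and an iMOS Bcl11a allele. Bcl11a is a zinc finger repressor known for its role in B cell development, HSC function and globin switching. The groups were MUT T1, MUT T2, WT T1 and WT T2, with 2 libraries each. MUT and WT name the iMOS Bcl11a allele, and T1 and T2 are sorted populations that the labels do not define further. Nor do they say whether T1 or T2 cells of MUT mice overexpressed Bcl11a or were wild-type neighbours. MUT against WT, called genotype below, therefore compares alleles and not cells of known Bcl11a level. The study asked about the role of Bcl11a within HSC and about effects of its overexpression on neighbouring wild-type HSC. Nothing in the labels says that the 2 libraries of a group came from separate animals, or whether T1 and T2 came from the same ones, so p-values here measure only the spread between these libraries.

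Distal open regions are usually read as enhancers, which bind transcription factors and act on promoters at a distance, or as insulators, where CTCF stops the loops that cohesin extrudes. A strong enhancer in HSC typically lies in a group of open regions near blood genes, while CTCF sites are narrow, shared by many cell types and often found at domain borders. Peaks with steep, fixed edges can also arise where reads from a sequence with several copies are placed on 1 copy of the assembly. These lists hold peak positions and heights and no factor binding, histone marks, contacts or mappability, so none of these classes was assigned. The part of multi-copy sequence in the values below was not tested.

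The label of the cells was checked at marker genes. Every library called a region at an end (within 1 kb) of 28 of 30 HSC identity genes and 14 of 15 megakaryocyte genes. Both shares were 93.3%. The same held at 10 of 13 erythroid and 11 of 15 stromal and endothelial genes. It held at 4 of 15 B lymphoid, 6 of 15 T and NK lymphoid and 6 of 15 granulocyte and monocyte genes. The counts were thus lower at lymphoid and granulocyte and monocyte genes, but did not set HSC identity genes apart from megakaryocyte genes. No share over all protein-coding genes is given here, so these counts do not settle the label. An open gene end is not a measure of expression. The libraries held 60944 to 73328 peaks on chromosomes 1 to 19. The genome-wide background that the peak caller used, which follows sequencing depth, lay between 1.89 and 3.38 fragments per position, a 1.79-fold range. WT T2 replicate 2, MUT T1 replicate 2 and WT T2 replicate 1 were the shallowest, at 1.89, 2.03 and 2.45.

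The 7 regions lay on 7 different chromosomes, so no pair of them formed a cluster. By gene, 4 lay within the span of a protein-coding gene and 3 between genes (mm10 coordinates throughout). The table of genes gives spans without exons, so exon and intron are not told apart. The highest lay at chr16:11143913-11144300, 388 bp inside Zc3h7a, which encodes a CCCH-type zinc finger protein, 7.32 kb from the nearer end of the gene. A region of 323 bp at chr2:5379054-5379376 lay in Camk1d, a calcium and calmodulin-dependent kinase gene, 85.6 kb from its nearer end. The region at chr12:78350869-78351176, 308 bp, lay 134 kb within Gphn, the gene of gephyrin, which anchors inhibitory neurotransmitter receptors and completes synthesis of the molybdenum cofactor. The fourth, 351 bp at chr5:146260993-146261343, lay in Cdk8, the kinase of the Mediator complex, 30.2 kb from its end.

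The 3 regions between genes were farther from coding sequence in 2 cases. That on chromosome 18 (chr18:68692065-68692302, 238 bp) lay 263 kb from Mc2r, the receptor for adrenocorticotropic hormone, and 651 kb from Tcf4, an E-protein transcription factor. It fell within the span of the long non-coding RNA gene Gm30821. The chromosome 3 region (chr3:5860346-5860823, 478 bp) lay 282 kb from Pex2, a peroxisome assembly gene, and 755 kb from 1700008P02Rik on its other side. The chromosome 6 region (chr6:47748242-47748770, 529 bp) was 9.92 kb from Gm40363, 47.4 kb from Pdia4, a protein disulfide isomerase gene of the endoplasmic reticulum, and 0.441 kb from the end of the long non-coding RNA gene Gm52861. With ends of genes of every type barred, it drops from the set and 6 regions are left.

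The median distance to a protein-coding gene end was 85.6 kb for the 7 regions and 20.2 kb for the 35308 other distal regions called in all 8 libraries. Among the 7 it ran from 7.32 to 282 kb. The median was 28.4 kb for the 26 regions at a fold of 15, and 18.1 kb for the 2497 with a lowest fold between 10 and 20. The share inside genes was 57.1% of the 7 (exact 95% interval 18.4% to 90.1%) and 54.0% of the 35308 others, values whose intervals overlap. None of the 7 lay in, or had as its nearest gene within 50 kb, a gene of the 11 lists used here, which cover HSC identity, HSC aging, AP-1 and immediate early genes, cytokine and niche signalling, chromatin architecture and 6 sets of cell type markers. None lay within 50 kb of a gene of 10 clustered families either, among them the protocadherin, Hox, olfactory receptor, histone and MHC genes. The 11 lists hold 215 entries, against 20665 protein-coding genes, so few regions of any kind could meet the first rule. How many of the other distal regions met either rule is not given here, so these absences do not set the 7 regions apart.

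The surroundings differed between the 7 regions. The chromosome 3 region had no other region called in all 8 libraries within 50 kb, and the nearest one was 284 kb away. On chromosome 18 there was 1 such neighbour, 19.2 kb away. Within 50 kb the Zc3h7a and chromosome 6 regions each had 4 neighbours, Camk1d had 3, and Gphn and Cdk8 had 2 each. The median was 2 for the 7 regions, 4 for the other distal regions and 3 for distal regions with a lowest fold between 10 and 20. No neighbour within 10 kb was found for 4 of the 7 (57.1%), against 49.8% of the other distal regions. For those with a lowest fold between 10 and 20 it was 68.5%, so isolation at that distance was common in general.

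**Figure D1:**
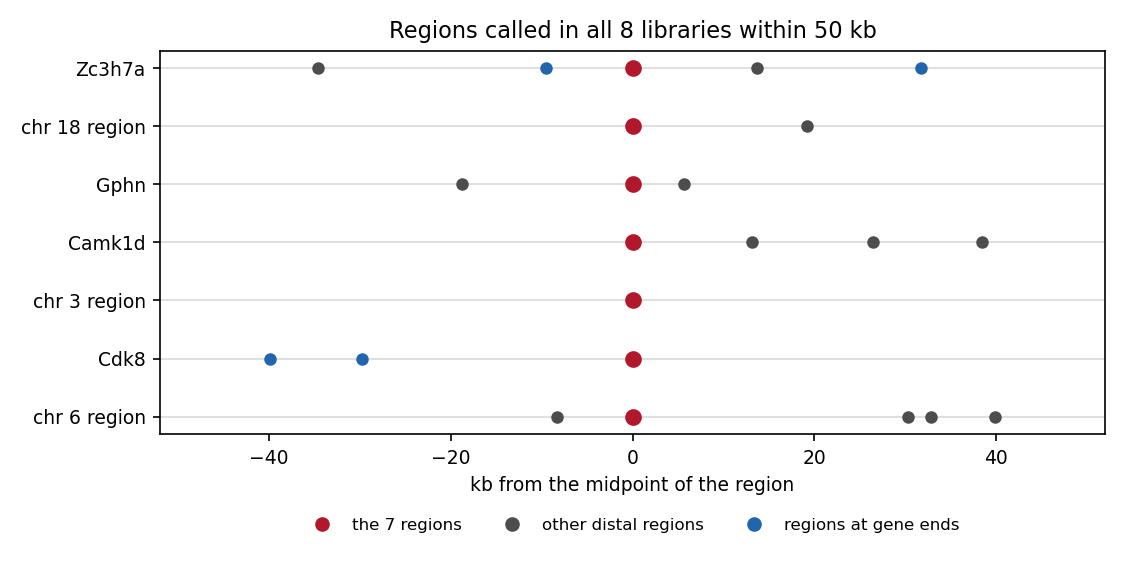
Each row is 1 of the 7 regions, placed at 0 (red), with the other regions called in all 8 libraries by distance from its midpoint in kb, distal ones in grey and those at gene ends in blue. The chromosome 3 region had none within 50 kb, while the Zc3h7a and chromosome 6 regions had 4 each.

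The height of the 7 regions differed widely although all passed the same fold. The whole number of fragments at each summit and the local background beneath it were solved from the deposited fold and p-value of each peak. Zc3h7a had 1307 and 1173 fragments at its summit (MUT T1), 1474 and 1185 (MUT T2), 1457 and 1204 (WT T1) and 1529 and 1167 (WT T2). In each library it ranked 3 of all 48684 regions by pileup, and its fold of 35.9 to 42.1 was among the 3 highest. Gphn had 113 and 87 fragments (MUT T1), 141 and 123 (MUT T2), 119 and 146 (WT T1) and 102 and 98 (WT T2). Its pileup ranked between 4596 and 9840, and it reached a fold of 25.3 to 29.0 over a local background of 2.31 to 4.26 fragments, compared with 27.0 to 37.6 at Zc3h7a. In MUT T1 replicate 1 the background at Gphn was 1.04 times the genome-wide value.

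The other members lay between these extremes. The chromosome 3 region had 416 to 609 fragments over a background of 13.2 to 21.9, and ranked 5 or 6 in each library. Camk1d had 140 to 215 fragments over 3.83 to 6.22, and Cdk8 had 155 to 223 over 5.59 to 7.43. The chromosome 6 region had 92 to 141 fragments over 2.94 to 5.29, and ranked between 4402 and 8656. Most variable was the chromosome 18 region, with 166 to 385 fragments over 3.70 to 9.03 and a rank between 7 and 327. A high fold was thus reached at very different pileups, by regions whose background was high as well as by regions close to the genome-wide background. Background and summit are not independent, because a local background can hold fragments of the peak itself. Over an assumed window of 10 kb, it came to 0.599 to 0.702 times summit pileup multiplied by peak width at Zc3h7a. The same ratio was 0.676 to 0.827 at the chromosome 3 region and 0.853 to 1.02 at Gphn. By its form it is near 10 kb divided by fold times width, so it does not measure the peak's share of the background. Counting intervals for these pileups (exact Poisson, 95%) cover counting error only, and ran from 69.7 to 107 for the lowest value, 87 fragments at Gphn.

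**Figure D2:**
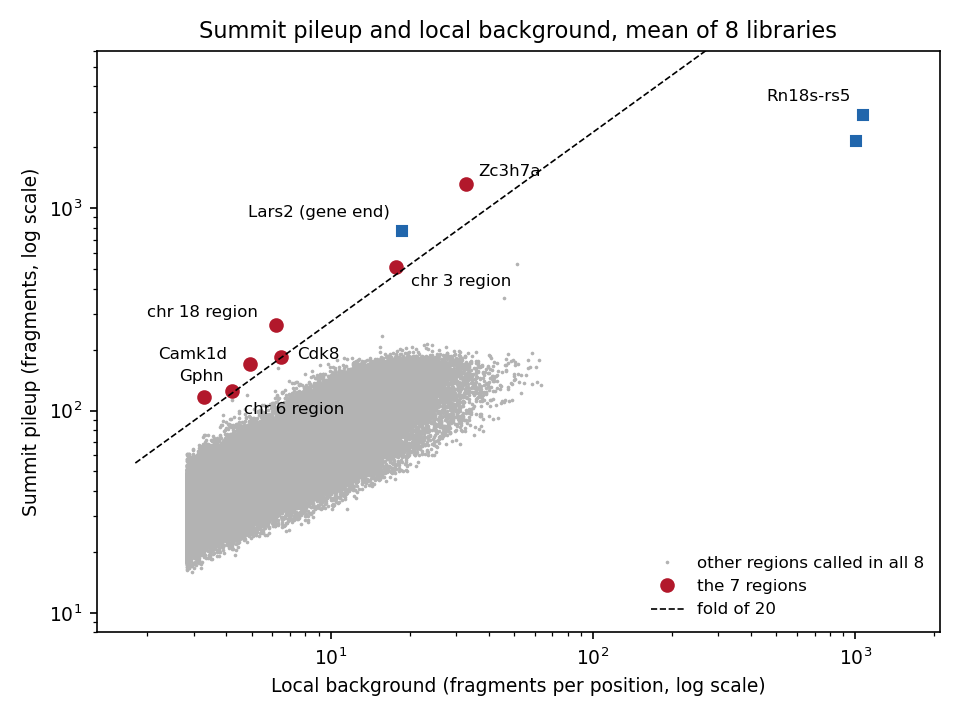
Mean summit pileup against mean local background over the 8 libraries, both in fragments on log axes, for regions called in all 8 (grey), the 7 regions (red), and Lars2 and the pair at Rn18s-rs5 (blue squares). The dashed line is a fold of 20, and the 7 red points lie on or above it across a range of heights, from Gphn to Zc3h7a, while the Rn18s-rs5 pair lies far below it.

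The fold values themselves lay within a narrow band in each region. Zc3h7a read 35.9 and 41.9 (MUT T1), 38.7 and 37.7 (MUT T2), 37.7 and 37.1 (WT T1) and 42.1 and 41.4 (WT T2). The chromosome 18 region read 33.2 and 35.6 (MUT T1), 36.9 and 32.0 (MUT T2), 38.5 and 35.8 (WT T1) and 42.0 and 38.1 (WT T2). These were the 2 regions above 30 in every library. Camk1d covered 25.2 to 33.5, the chromosome 3 region 24.2 to 29.5, Cdk8 22.3 to 26.7 and the chromosome 6 region 21.8 to 27.2. The lowest value of 6 of the 7 regions fell in MUT T1 replicate 1, the library with the highest genome-wide background of 3.38.

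**Figure D3:**
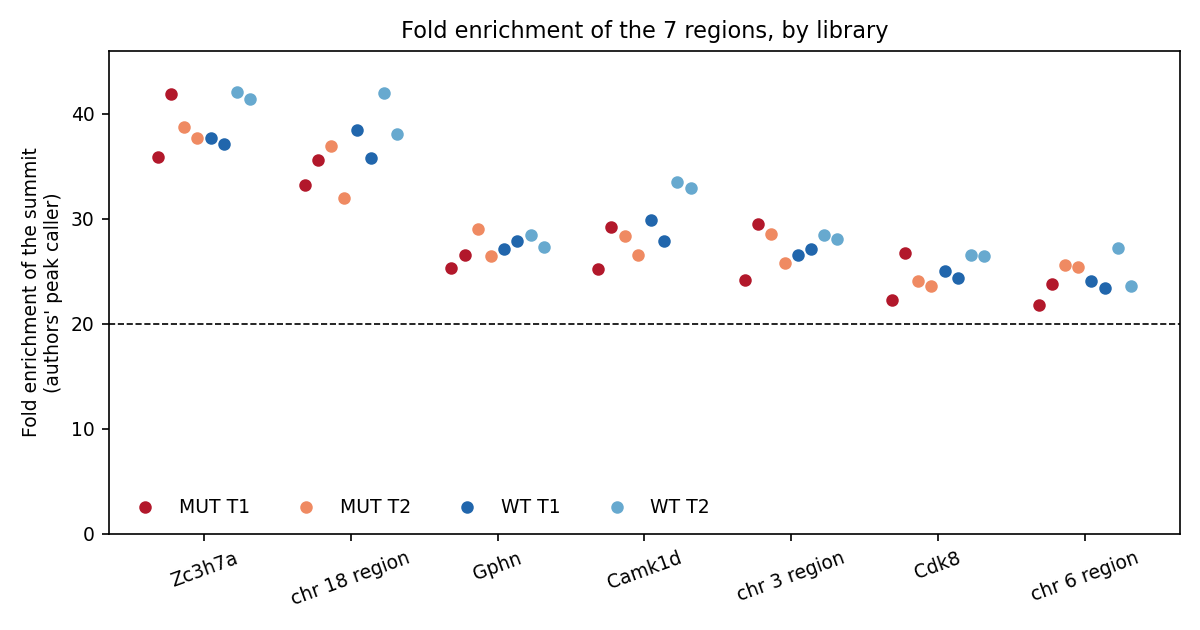
Fold enrichment of the summit, as deposited, for the 7 regions, with 1 point per library coloured by group and a dashed line at 20. Zc3h7a and the chromosome 18 region sit above 30 in all 8 libraries, and the other 5 regions sit between 21.8 and 33.5.

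The regions were narrow and their borders were nearly fixed from library to library. The median width of the merged regions was 351 bp for the 7 and 843 bp for the 35308 other distal regions. It was 803 bp for the 2497 distal regions whose lowest fold was between 10 and 20. Single peaks had median widths of 338, 625 and 634 bp in the same order. In the 7 regions the local background over the assumed 10 kb came to 0.585 to 1.13 times summit pileup multiplied by peak width. That ratio follows from fold and width, so it does not show how much of the background came from the peak. The rule may favour narrow peaks, and its part in these widths was not tested. The position of the peak start ranged over a median of 6 bp across the 8 libraries in the 7 regions, against 192 bp in the other distal regions, and the end over 6 bp against 192 bp. The summit ranged over 7 bp against 135 bp. In Gphn the start moved by 1 bp and the end by 12 bp. In Cdk8 the start moved by 2 bp, the end by 18 bp and the summit by 1 bp. In the chromosome 18 region these ranges were 8, 6 and 2 bp, and in Zc3h7a 6, 3 and 6 bp. The chromosome 6 region differed from the rest, with a start that ranged over 49 bp and an end over 156 bp.

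Edges this steady were rare elsewhere. A start range of at most 12 bp with an end range of at most 20 bp, limits chosen after the values were seen, held for 6 of the 7 regions. It held for 4 of the 35308 other distal regions (0.0113%), which lay near Cd55b, Smyd3, Npffr1 and Metrnl, and for none of the 2497 with a lowest fold between 10 and 20. Among 13369 regions at gene ends called in all 8 libraries it held for 2 (0.015%), at Lars2 and Abca5. Both width and edges come from the same peaks that gave the fold, so these shares are a description. The taller a peak the more fragments set its edges, and the part of height in the narrow ranges was not tested. The chromosome 6 and Gphn regions had similar normalised pileups, 124 and 115 on average, and end ranges of 156 and 12 bp. The chromosome 6 peak was 506 bp wide in WT T2 replicate 1 and 373 to 413 bp in the other libraries. This 1 pair is not a test of height.

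**Figure D4:**
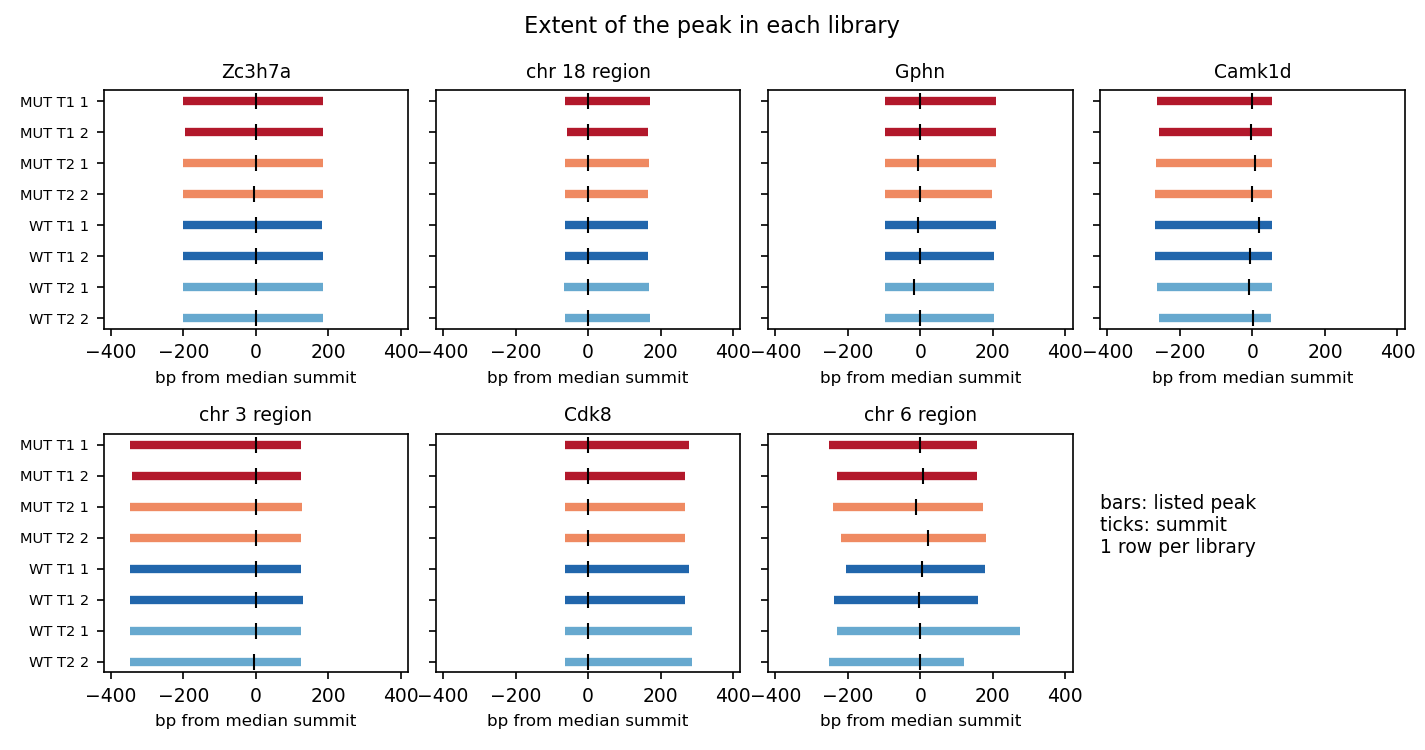
Extent of the listed peak (bars) and its summit (ticks) in each of the 8 libraries, in bp from the median summit, for each of the 7 regions. Starts and ends line up within 12 and 18 bp in 6 regions and spread over 49 and 156 bp in the chromosome 6 region.

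At gene ends 1 region passed the same fold in all 8 libraries, at chr9:123461793-123462188 in Lars2, the mitochondrial leucyl-tRNA synthetase gene. It lay 487 bp from the end of the gene, was 396 bp wide, and had a fold of 36.3 to 41.3 with 587 to 919 fragments. Its start and end ranged over 5 and 10 bp, as in the distal set. The highest pileups of all did not pass the fold. A pair of regions at Rn18s-rs5, a ribosomal RNA pseudogene on chromosome 17, had 1685 to 3268 fragments at their summits, but their local background of 757 to 1260 fragments left a fold of 2.05 to 2.87.

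Few distal regions reached the threshold. A fold of 15 was reached by 98 distal regions in MUT T1 replicate 1 and 990 in WT T2 replicate 2, the extremes. In all, 31 distal regions reached a fold of 20 in at least 1 library, 15 of them in 1 library, 9 in 2 to 7 libraries and 7 in all 8. Just outside the set lay chr8:20424218-20425076, whose fold of 19.4 to 24.7 was below 20 in MUT T2 replicate 2 and in no other library. A region in Xkr6, a gene of the XK-related family, at chr14:63681581-63682018 had 19.1 to 25.2 and was below 20 in WT T1 replicate 1 alone. The next 3 regions started at chromosome 7 position 6409974 (18.6 to 22.7), chromosome 2 position 83993776 (17.1 to 19.5) and chromosome 11 position 106076257 (16.8 to 19.1). Just inside lay the chromosome 6 region, Cdk8, the chromosome 3 region, Camk1d and Gphn, with lowest folds of 21.8, 22.3, 24.2, 25.2 and 25.3.

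A region in Cmss1 at chr16:57391457-57391673 was strong wherever it was listed but was listed in 4 libraries. Its fold was 29.2 in MUT T1 replicate 2, 26.4 in MUT T2 replicate 2, 30.2 in WT T2 replicate 1 and 29.3 in WT T2 replicate 2, with 428, 403, 595 and 412 fragments. It was 217 bp wide in each of these lists. The shortest peak listed in any library was 232 and 200 bp (MUT T1), 216 and 217 (MUT T2), 219 and 219 (WT T1) and 202 and 205 (WT T2). A peak of 217 bp is shorter than the shortest listed peak in 3 of the 4 libraries that lack it, and 1 bp above it in the other, MUT T2 replicate 1. The narrowest of the 7, on chromosome 18, was 224 to 237 bp wide, close to the same lower limits.

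The number of distal regions at a fold of 20 or more uses the values and threshold that chose the set, so it is given by library without a test. It was 9 and 13 (MUT T1), 11 and 9 (MUT T2), 8 and 10 (WT T1) and 20 and 22 (WT T2). The mean was 10.5 ± 1.91 in MUT and 15 ± 7.02 in WT (SD, n = 4 each), a difference of -4.5. T1 libraries averaged 10 ± 2.16 and T2 libraries 15.5 ± 6.45 (SD, n = 4 each), a difference of -5.5. Both WT T2 libraries were above all others, and they were among the 3 shallowest. With pileup and background scaled to the depth of the shallowest library, the counts were 6 and 12 (MUT T1), 9 and 8 (MUT T2), 7 and 8 (WT T1) and 15 and 22 (WT T2).

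Whether the 7 regions differed in openness between genotypes or populations was tested on summit pileups divided by a library size factor, with limma across all 48684 regions and Benjamini-Hochberg adjustment over all of them. Of the 7, the chromosome 18 region fell in MUT. Its normalised pileup was 211 and 210 (MUT T1), 282 and 170 (MUT T2), 349 and 240 (WT T1) and 352 and 265 (WT T2). The groups overlapped, since 1 MUT T2 library was above 2 of the WT libraries, while the other 3 MUT libraries were below all 4 WT libraries. MUT averaged 218 ± 46.6 and WT 302 ± 57.5 (SD, n = 4 each), a log2 difference of -0.47 (SE 0.103, 95% interval -0.68 to -0.26, limma adjusted p = 0.0273). It was the 1 member of 7 called in this comparison, in which 0.0288% of all regions were called lower and 0.15% higher in MUT.

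That call rested on single libraries and on the model. The log2 difference stayed below 0 under all 13 alternatives (-0.65 to -0.29), but the adjusted p was 0.549 without MUT T2 replicate 2 (log2 -0.29), 0.561 without WT T1 replicate 1 (-0.34) and 0.333 without WT T2 replicate 1 (-0.37), and 0.438 in limma without a trend. It was 0.114 with size factors from the genome-wide background (log2 -0.58), a scaling that moved the median of all regions to -0.12. Among the 5 deeper libraries, with a genome-wide background above 3, the normalised pileup was 170 to 282 in 3 MUT libraries and 240 to 349 in 2 WT libraries. Among the 3 shallower ones it was 210 in 1 MUT library and 265 to 352 in 2 WT libraries.

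The other 6 regions were not called between MUT and WT. Cdk8 had normalised pileups of 143 and 221 (MUT T1), 168 and 155 (MUT T2), 185 and 161 (WT T1) and 229 and 227 (WT T2), so that the highest MUT library was above 2 of the WT libraries. It averaged 172 ± 34.5 in MUT and 201 ± 33.4 in WT (SD, n = 4 each), with a log2 difference of -0.23 (95% interval -0.41 to -0.04, adjusted p = 0.419 in limma). Without MUT T1 replicate 2 it was called, at -0.39 with an adjusted p of 0.00566, in a fit that called 241 of all regions, against 87 with all libraries. Camk1d had 150 and 177 (MUT T1), 156 and 152 (MUT T2), 195 and 150 (WT T1) and 181 and 202 (WT T2), with WT T1 replicate 2 level with the lowest MUT library. Its mean was 159 ± 12.3 in MUT and 182 ± 23.1 in WT, with a log2 difference of -0.19 (-0.37 to -0.02, limma adjusted p = 0.492). The chromosome 3 region differed by -0.15 (-0.30 to 0, adjusted p = 0.525) and Zc3h7a by -0.06 (-0.21 to 0.08, adjusted p = 0.827). The chromosome 6 and Gphn regions both differed by -0.01, with intervals of -0.19 to 0.18 and -0.20 to 0.17. The log2 difference was below 0 for 7 of 7 regions with a median of -0.15, and for 51.5% of all regions with a median of -0.01. At an unadjusted p under 0.05 there were 4 of the 7 and 4467 of all regions (9.18%). With MUT T1 replicate 1 left out, the difference was below 0 for 4 of the 7, with a median of -0.07. It was also below 0 for 4 with quantile normalization, where the chromosome 3, chromosome 6 and Gphn regions changed sign, to 0.03, 0.05 and 0.04. That scaling ties a value to its rank, which leaves little room for change in Zc3h7a, at rank 3 in every library. No member had MUT and WT libraries that did not overlap, while 1.82% of all regions did in the lower and 2.54% in the higher direction.

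Between T1 and T2 no region was called by limma, among the 7 or among all 48684 (0% in either direction). At an unadjusted p under 0.05 there were 0 of the 7 and 2870 of all regions (5.9%). The log2 differences of the 7 lay between -0.13 at Cdk8 (95% interval -0.32 to 0.05) and 0.03 at the chromosome 6 region (-0.15 to 0.22), with adjusted p between 0.865 and 0.975. The T1 and T2 libraries overlapped in all 7 regions, while they did not in 1.28% of all regions in the higher and 1.14% in the lower direction.

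**Figure D5:**
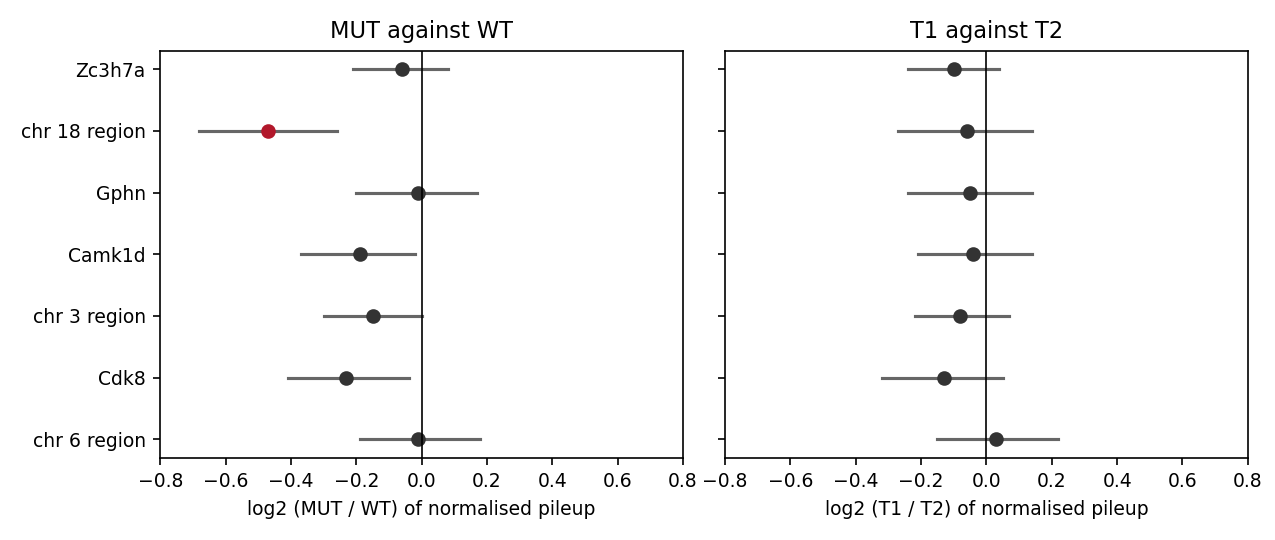
Log2 difference in normalised summit pileup with its 95% interval (limma, 8 libraries) for each of the 7 regions, MUT against WT on the left and T1 against T2 on the right, with the called region in red. The chromosome 18 region is at -0.47 for MUT against WT, and the intervals of all 7 regions cross 0 for T1 against T2.

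Within a single population no member was called between genotypes. In T1, where 0.039% of all regions were called higher and 0.00616% lower in MUT, the chromosome 18 region differed by -0.46 (limma adjusted p = 0.403) and Zc3h7a by 0.17 (adjusted p = 0.76), and 1 of the 7 had an unadjusted p under 0.05, against 3450 of all regions (7.09%). In T2, where 0.0164% were called higher and 0.0123% lower, 4 of the 7 had an unadjusted p under 0.05, against 6051 of all regions (12.4%). With 2 libraries a group, MUT and WT values did not overlap in T1 for 1 of the 7, the chromosome 18 region, which was lower in MUT, where 17.7% of all regions were lower and 16.8% higher in this way. In T2 the same held for 4 of the 7, Zc3h7a, Camk1d, Cdk8 and the chromosome 3 region, all lower in MUT T2, where 22.9% of all regions were lower and 22.7% higher. Cdk8 had normalised pileups of 168 and 155 in MUT T2, against 229 and 227 in WT T2. Its log2 difference was -0.50 (95% interval -0.76 to -0.24, limma adjusted p = 0.13). The value for the chromosome 18 region was -0.48 (adjusted p = 0.171), that for Camk1d -0.31 (adjusted p = 0.275) and that for Zc3h7a -0.30 (adjusted p = 0.212). Cdk8, Zc3h7a and the chromosome 18 region were called in T2, with adjusted p of 0.00489 to 0.0409, when either MUT T1 library was left out of the shared estimate of the spread. In those fits the calls over all regions in T2 numbered 573 without MUT T1 replicate 1 and 581 without MUT T1 replicate 2, against 14 with all libraries.

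The difference between these genotype effects was tested directly. Zc3h7a had normalised pileups of 1207 and 1483 in MUT T1, against 1322 and 1064 in WT T1, and 1281 and 1155 in MUT T2, against 1573 and 1430 in WT T2. The MUT T2 libraries were both below the WT T2 libraries, while the T1 groups overlapped. The interaction was 0.48 on the log2 scale (95% interval 0.19 to 0.76, limma adjusted p = 0.281) for Zc3h7a and 0.54 (0.17 to 0.91, adjusted p = 0.317) for Cdk8. Limma called no interaction among the 7 regions or all 48684 (0%). An unadjusted p under 0.05 was found for 2 of the 7 and 4938 of all regions (10.1%). For the chromosome 18 region the interaction was 0.02 (-0.39 to 0.43).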

How the data were processed

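ATAC-seq of sorted HSC gave 1 peak list per library, called per sample by the authors. Bowtie2, SAMtools, MACS2 and mm10 appear in the submitters' processing notes without versions or settings, and no source used here says whether cut sites were shifted. The deposited columns used were the fold enrichment (a ratio), the −log10 p-value and q-value (lowest −log10 q 3.0) and the score, which is 10 times the −log10 q-value. The whole summit pileup and its background were solved from fold and −log10 p, taken as a Poisson tail, within 0.001, for 546786 of 546792 peaks. Peaks overlapping by 1 bp were merged. Gene ends came from a RefSeq table of 20665 protein-coding genes. Size factors were median ratios over 48684 regions. limma 3.58.1 (R 4.3.3, trend, 4 group means), tested on simulated data, and exact permutation tests for relations between libraries were used. The planned permutation test of strong regions per library is not reported, since its counts use the threshold that chose the set. Regions were named by the gene that holds or lies nearest them, and all 7 are named. The members and lists were chosen with earlier results of these data known. Alternatives covered the fold, gene-end windows, merging, scaling, trend, replicate block and single libraries. Sequences were not analysed here.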

Additional observations from a re-analysis of the deposited data

Results flagged for a closer look

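In 1 of 32 groups of 4 values tested for a library that stands apart, the gap of the outlying library exceeded the usual limit, at 0.849 of the group's range. It was the normalised pileup of the Gphn region among the T2 libraries, 123 and 120 in MUT T2 and 105 and 120 in WT T2, where WT T2 replicate 1 was lowest. Chance gives about 1 in 20 such groups.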

How the results depend on the processing

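The set held 26 regions at a fold of 15 (median width 666 bp) and 4 at a fold of 25. Windows around summits kept 7 regions, with a median width of 208 bp. Fold over the genome-wide background, added after seeing the data, gave 4002 regions (median width 1093 bp), 1781 of them with another within 50 kb. The set held 6 regions at equal depth and 7 to 8 with 1 library left out. Members called between MUT and WT fell to 0 with background size factors and 0 without a trend, and were 0 to 2 with 1 library left out. In the same way 0 to 1 were called in T1 and 0 to 3 in T2. With 1 library left out the difference in distal regions at a fold of 20 was -6.83 to -2.17 for MUT against WT and -7.67 to -3.33 for T1 against T2. Same-numbered libraries had deviations correlated by 0.113 between WT T1 and WT T2 and 0.0869 between MUT T1 and MUT T2. Between genotypes the correlations were 0.0228 to 0.0359. The main fit did not treat the numbers as pairs, and whether they mark shared animals is not given. With the replicate block the chromosome 18 region had a limma adjusted p of 0.000345, and limma calls between MUT and WT over all regions numbered 141, against 87 without it. These calls numbered 28 without a trend, 40 with background size factors, 64 with quantile normalization, and 32 to 241 with 1 library left out. Of 364 values of single regions under alternatives, 350 kept their side of the threshold, 9 newly passed, 5 no longer passed and 0 reversed; 39 that were called in neither changed sign. Depth limits the shallower libraries, where 87 fragments stood at the lowest summit.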

Other observations

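The normalised pileup at several of these regions moved across libraries with that at Rn18s-rs5, the ribosomal RNA pseudogene on chromosome 17, which was picked after its height was seen. The mean of its pair of regions was 2321 and 2437 (MUT T1), 2448 and 2288 (MUT T2), 2575 and 2371 (WT T1) and 2590 and 2782 (WT T2). Over the 8 libraries Camk1d had Pearson's r of 0.909 with it (exact permutation p = 0.000992, adjusted p = 0.00794 over 8 relations) and Spearman's rho of 0.857 (exact permutation p = 0.0107). Cdk8 had r of 0.798 (adjusted exact permutation p = 0.0388) and rho of 0.881, the chromosome 3 region r of 0.785 (adjusted exact permutation p = 0.0388) and rho of 0.905, and Lars2 r of 0.807 (adjusted exact permutation p = 0.0388) and rho of 0.857. Without the 2 libraries farthest from the median at Rn18s-rs5, r was 0.871 for Camk1d, 0.735 for Cdk8, 0.927 for the chromosome 3 region and 0.726 for Lars2. The chromosome 18 region and Zc3h7a did not pass by r, at 0.686 and 0.683 (adjusted exact permutation p = 0.0812 for each). By rho the chromosome 18 region passed, at 0.786 (adjusted exact permutation p = 0.0447). Zc3h7a did not pass by rho, at 0.738 (adjusted exact permutation p = 0.0611). Without the same 2 libraries r was 0.897 for the chromosome 18 region and 0.689 for Zc3h7a. The chromosome 6 and Gphn regions had r of -0.203 and -0.0986 (adjusted exact permutation p = 0.72 and 0.818). An r as high as that of Camk1d was found in 0.261% of all regions called in all 8 libraries, and one as high as that of the chromosome 3 region in 2.51%. The permutations treated the 8 libraries as exchangeable, although they form 4 groups. Both WT T2 libraries were above all others at Rn18s-rs5, and they were among the 3 shallowest. These relations therefore cannot be told apart from differences between groups or in depth. All values share the library size factors, and a genotype has too few libraries for an r of its own. The part of ribosomal or other multi-copy sequence in the pileups was not tested.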
